A study of Mus musculus with 14 samples.

Results

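The comparison described here set chromatin accessibility in MPP3 cells carrying an Npm1 mutation against that in wild-type MPP3 cells, with 2 libraries in each group. These 4 libraries were taken by their labels from a series of 14, and they were compared over the 25058 regions on chromosomes 1 to 19 and X whose mean signal over all 14 libraries was at least 100, out of 705361 regions in all (3.55%). Measured values played no part in choosing the libraries.

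MPP3 are multipotent progenitors of the bone marrow that lean towards granulocyte and monocyte output. Npm1 encodes nucleophosmin, an abundant nucleolar chaperone of ribosome assembly. In human acute myeloid leukaemia, mutation of NPM1 moves the protein to the cytoplasm and goes along with sustained expression of HOXA and HOXB genes and of MEIS1, which encode homeodomain transcription factors of stem and progenitor cells. In the assay, ATAC-seq, an enzyme cuts and tags DNA where it is not wrapped tightly, so a high signal marks an accessible promoter or enhancer.

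The Npm1 donors were heterozygous for an allele that the labels write as Npm1-frt/+ and title Npm1c, and the WT donors carried the Mx-Cre transgene, in which the interferon-inducible Mx1 promoter drives the recombinase. Donors were young and of strain C57BL/6J. Both groups share the rest of the procedure: 1000000 unfractionated marrow cells were given to young CD45.1 recipients after lethal irradiation, poly(I:C) followed after 4 weeks, tamoxifen 4 weeks later, and MPP3 cells were sorted by flow cytometry after another 4 weeks. All groups therefore consist of cells that had repopulated an irradiated host, whose remaining cells carry CD45.1. The labels name Mx-Cre for WT donors only and name no recombinase for the Npm1 donors, and they leave unsaid whether libraries A and B of a group are from different mice. The p-values below thus rest on how far these libraries lay apart, and that spread may be technical. The question was which regions the Npm1 allele opens or closes in MPP3 when it acts without a Dnmt3a mutation.

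Signal summed over all regions was 18739535 and 23512341 in Npm1 and 18304254 and 28748205 in WT. The tested regions held 32.3% and 44.4% of it in Npm1, against 29.6% and 51.4% in WT. From the spacing of low values, a deposited value of 100 stood for about 142 and 261 reads in Npm1 libraries A and B, against 108 and 186 in WT libraries A and B. These are estimates that cover counting depth only. In both genotypes library A was thus the shallower and the less enriched one. Over the tested regions, log2 signal correlated at 0.969 between Npm1 B and WT B, above the 0.937 between Npm1 A and Npm1 B, while WT A stood at lower values against the other 3 libraries (0.888 to 0.898). These correlations are across regions, which are not independent, and share library depth. With 2 libraries against 2, an exact two-sided permutation test of a single value cannot go below p = 0.333.

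No region passed the threshold. Limma, fitted to all 14 libraries with log2(normalized signal + 4) and a Benjamini-Hochberg adjusted p under 0.05 as the threshold, called 0 of 25058 regions (0%). At an unadjusted p under 0.05 there were 6 regions higher in Npm1 (0.0239%) and 25 lower (0.0998%), 31 in all, a share far below 0.05. The smallest adjusted p was 0.227, and at every other region it was 1.0. The median log2 difference over all tested regions was 0.01, with an interquartile range of -0.15 to 0.15, and 26 regions (0.104%) differed by more than 1 in size on the log2 scale, 9 higher and 17 lower. Both Npm1 values lay above both WT values in 3256 regions (13.0%) and below both in 3287 regions (13.1%). The difference was positive in 12915 regions (51.5%), the share to set beside the counts of positive regions below.

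The sizes that these libraries leave possible can be read from the intervals. The 95% interval of the log2 difference lay wholly within -1 and 1, a 2-fold change either way, in 11233 regions (44.8%), and within -2 and 2 in 24746 regions (98.8%). Of the 13825 regions whose interval reached past -1 or 1, 13794 had an interval that also took in no difference, and Mx1 was among the rest. The shared estimate of spread comes from all groups of 2 libraries. The SD over regions of library A minus library B was 0.38 in MPP3 Npm1 and 0.51 in MPP3 WT on the log2 scale, against 0.64 to 0.90 in the other 4 groups of 2, so the estimate is wider than the spread within the groups compared. When only the 4 MPP3 libraries were fitted, 463 regions had an unadjusted p under 0.05 and again 0 were called. Without WT library A, the library that stood apart from the other 3, 0 were called and 58 had an unadjusted p under 0.05; without WT library B, 1 was called, at Mx1, and 247 had an unadjusted p under 0.05. Of 65 regions chosen for description by rule, 39 moved by over 1.5 times or lost their sign when 1 of the 4 MPP3 libraries was left out, 28 of them without WT library A, 22 without WT library B, 12 without Npm1 library A and 11 without Npm1 library B. Of the 39, 18 had a reported difference of over 0.5 in size, and 7 lost their sign. For these 18 and 7 the values are given beside the region. The other 14 kept their sign and had differences of up to 0.5 in size.

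**Figure D1:**
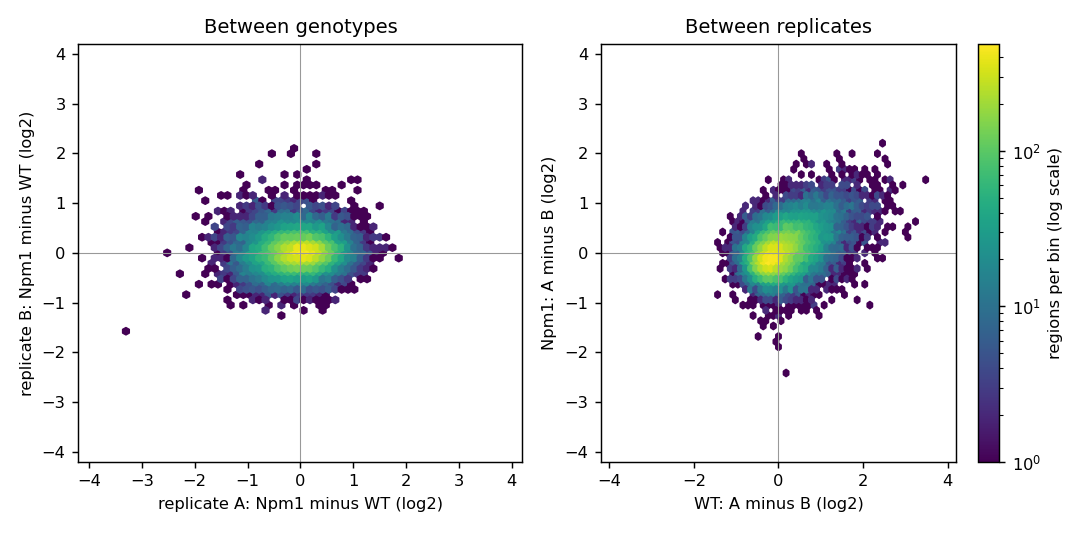
Log2 differences over the 25058 tested regions, as counts of regions per hexagon on a log colour scale. Left, Npm1 minus WT for replicate A (horizontal) against replicate B (vertical); right, library A minus library B in WT (horizontal) against Npm1 (vertical). The differences between genotypes form a cloud around 0 with no slope and 1 region far to the lower left, at Mx1. The differences between libraries A and B lie along a rising diagonal.

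The plot of differences by replicate shows how little the 2 pairs of libraries share. Over regions, Npm1 minus WT correlated at 0.03 between replicate A and replicate B. Library A minus library B, on the other hand, correlated at 0.41 between Npm1 and WT. Differences of over 1 in size on the log2 scale between genotypes were met in 2.64% of regions for replicate A and in 0.367% for replicate B. Depth and the share of signal in tested regions differ between libraries A and B in both genotypes, as given above, and their part in these differences was not tested.

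The single region that stood apart lay at Mx1 (mm10, chromosome 16, 97462728 to 97465500, overlapping a bound of the gene), an interferon-induced gene. Its normalized signal was 116 and 145 in Npm1, against 1149 and 446 in WT. The groups were far from overlapping, although the WT libraries themselves differed more than 2-fold. The log2 difference was -2.43 (SE 0.41, n = 2 and 2, limma unadjusted p = 9.1e-06), which is 0.186 of the WT signal with a 95% interval of 0.103 to 0.335. Its adjusted p of 0.227 was the smallest of all regions, and the region did not pass. Without WT replicate B it passed (-3.10, adjusted p = 0.0149), without WT replicate A it did not (-1.75, adjusted p = 1.0), and with the share of signal in tested regions as a covariate it passed (-2.51, adjusted p = 0.0108). A fit of the 4 MPP3 libraries with the letters A and B as a block was chosen after seeing the data. It left 1 residual degree of freedom, and the region passed (-2.44, limma adjusted p = 2.2e-40). That p rests mainly on the spread that limma shares over regions, and the labels do not state that the letters pair libraries. It does not measure how far the WT libraries lay apart at Mx1. In the fit of the 4 libraries without the block the region did not pass. It passed in 3 of 30 alternative settings.

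**Figure D2:**
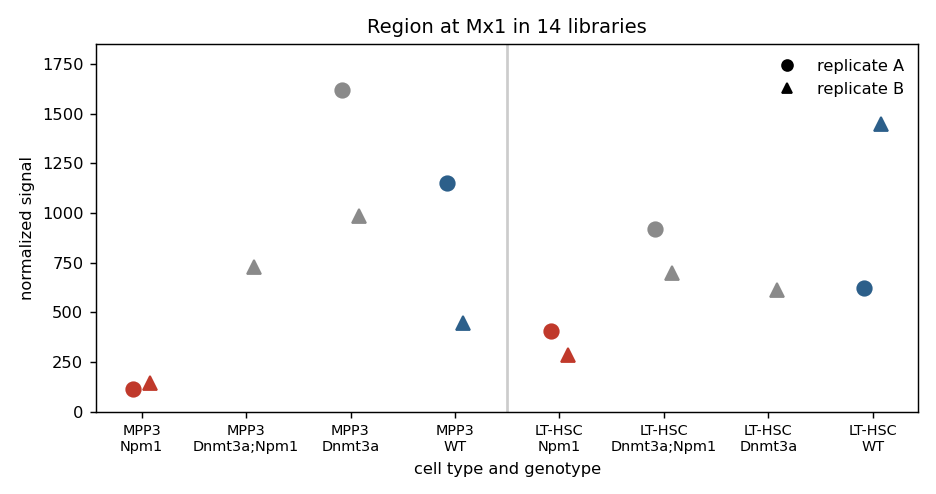
Normalized signal (vertical axis, linear) of the region at Mx1 in each of the 14 libraries, by cell type and genotype; circles are replicate A, triangles replicate B, red marks Npm1, blue WT and grey the Dnmt3a-bearing groups. The 4 Npm1 libraries, at 116, 145, 285 and 408, are the lowest of the 14.

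Across the series the 4 libraries with the Npm1 allele alone were the lowest at this region. The LT-HSC Npm1 libraries, from long-term haematopoietic stem cells, had 408 and 285, against 621 and 1445 in LT-HSC WT, a difference of -1.46 (SE 0.41, limma adjusted p = 0.0475 in that comparison). The difference between the MPP3 and the LT-HSC effect was -0.96 (SE 0.57, limma adjusted p = 0.507) and did not pass. The other MPP3 libraries had 730 in Dnmt3a;Npm1 and 1620 and 987 in Dnmt3a, and the other LT-HSC libraries 918 and 696 in Dnmt3a;Npm1 and 612 in Dnmt3a. Signal at Mx1 was thus not low in all libraries with an Npm1 allele. The 2 tested regions at the neighbouring gene Mx2, also interferon-induced, had 163 and 204 in Npm1 against 137 and 166 in WT, and 144 and 135 in Npm1 against 122 and 95.7 in WT, so neither was lower in Npm1. The Mx-Cre transgene holds sequence of the Mx1 promoter, reads from it can align to the gene itself, and the labels name it for WT donors only; its part in the difference was not tested.

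The other leading regions are given with the promoter sequence at those that hold a RefSeq gene start, because these are the sites where a difference in accessibility can be tied to a start. Among the 12 higher and 12 lower regions of smallest p with no overlap between the groups, 6 held a start whose sequence can be shown. For 5 of them the 250 bases before a start are shown, 5′ to 3′ on the strand of the gene (RefSeq, GRCm38.p6). Capitals mark the CCAAT box (CCAAT, or ATTGG on the other strand) and the GC box (GGGCGG, or CCGCCC on the other strand), letters that NF-Y and Sp1 family factors are known to bind. The windows are Hoxa5, chr6:52204588-52204837, minus strand; Hunk, chr16:90386147-90386396, plus strand; Fnbp1l, chr3:122619715-122619964, minus strand; Mdfi, chr17:47833292-47833541, minus strand; and Pgk1, chrX:106186850-106187099, plus strand.
Hoxa5: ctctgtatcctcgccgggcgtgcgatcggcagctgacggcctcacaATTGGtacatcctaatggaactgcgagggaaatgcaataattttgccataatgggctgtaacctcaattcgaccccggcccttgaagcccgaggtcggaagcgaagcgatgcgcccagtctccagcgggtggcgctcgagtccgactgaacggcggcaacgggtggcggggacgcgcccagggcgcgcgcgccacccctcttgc
Hunk: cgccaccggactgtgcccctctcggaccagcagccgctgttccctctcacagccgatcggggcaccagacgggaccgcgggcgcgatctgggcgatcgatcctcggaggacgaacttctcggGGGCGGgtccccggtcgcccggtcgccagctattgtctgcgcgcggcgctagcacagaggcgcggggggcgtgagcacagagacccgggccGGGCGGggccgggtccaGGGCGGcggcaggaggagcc
Fnbp1l: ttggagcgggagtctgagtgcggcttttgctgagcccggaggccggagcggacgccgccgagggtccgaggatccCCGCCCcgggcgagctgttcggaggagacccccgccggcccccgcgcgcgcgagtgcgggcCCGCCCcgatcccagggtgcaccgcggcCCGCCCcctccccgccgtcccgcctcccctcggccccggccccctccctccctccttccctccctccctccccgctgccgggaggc
Mdfi: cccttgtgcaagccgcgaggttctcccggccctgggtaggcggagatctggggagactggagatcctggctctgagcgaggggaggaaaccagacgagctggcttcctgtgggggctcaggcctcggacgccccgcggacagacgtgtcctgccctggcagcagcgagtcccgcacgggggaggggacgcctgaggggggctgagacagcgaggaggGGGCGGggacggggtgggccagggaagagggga
Pgk1: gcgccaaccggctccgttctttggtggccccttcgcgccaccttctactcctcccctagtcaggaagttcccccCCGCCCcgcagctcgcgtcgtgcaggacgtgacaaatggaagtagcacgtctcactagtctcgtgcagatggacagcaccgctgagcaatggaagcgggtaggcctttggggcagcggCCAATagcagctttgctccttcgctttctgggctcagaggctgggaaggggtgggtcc

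Of the windows at regions lower in Npm1, those of Hunk and Fnbp1l held 34 and 33 CpG dinucleotides with 3 GC boxes each, that of Hoxa5 28 CpG with 1 CCAAT box and no GC box, and that of Mdfi 18 CpG with 1 GC box. Mdfi has another RefSeq start in its region, whose window held 7 CpG and neither motif. At Pgk1, where Npm1 was higher, the window held 17 CpG with 1 of each motif, and at Zik1, also higher in Npm1 and not printed, 7 CpG with 1 of each. For comparison, the median was 6 CpG over all 32851 RefSeq windows. Over the 10064 tested regions that hold a start, it was 18, taking only the window with most CpG in each region. A GC box was found in 32.7% of all windows and in 64.3% of these chosen windows, a CCAAT box in 33.9% and 33.8%. The choice of window raises the CpG count on the side of the tested regions. A CCAAT box can share its end letters with a GC box, and a match in a window is not evidence of binding. With the 10064 regions in 5 equal classes, from few to many CpG, the median log2 difference was 0.01, 0.01, 0.02, 0.02 and 0.01. Windows with and without a GC box had medians of 0.01 and 0.02, with and without a CCAAT box 0.02 and 0.01, with and without TGACAG, the letters of MEIS factors, 0.01 and 0.01, and with and without TGANTCA, the letters of AP-1 factors, -0.01 and 0.01.

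Hoxa5, a homeobox gene of the anterior part of the HoxA cluster, was among the leading lower regions at its own start (chromosome 6, 52203222 to 52204967). Its signal was 62.2 and 59.6 in Npm1, against 121 and 102 in WT. Each pair lay close together and the pairs did not overlap. The log2 difference was -0.83 (SE 0.35, limma unadjusted p = 0.028, adjusted p = 1.0), not past the threshold. It was negative in all 30 alternative settings, from -1.01 to -0.71. The region was chosen for pairs that do not overlap and the settings reuse the same libraries, so the constant sign adds no support.

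The cluster as a whole showed no common direction. Of its 15 tested regions, 9 were higher and 6 lower in Npm1, with a median of 0.11. Read along the chromosome, the first region, at Hotairm1, was positive (0.37). The 4 consecutive regions from Hoxa2 to Hoxa5 were negative (-0.83 to -0.32) and the following 8 from Hoxa6 to Hoxa10 positive (0.05 to 0.43). The last 2, at Hoxa11 and Hoxa13, were negative (-0.27 and -0.24). This grouping was read from the values and carries no test. The region next to Hoxa9, a gene with high expression in human leukaemia with mutant NPM1, had 492 and 439 in Npm1, against 413 and 399 in WT (0.19, SE 0.28), and the stronger of 2 regions that hold a Hoxa10 start had 355 and 344 in Npm1, against 312 and 285 in WT (0.22, SE 0.31). Npm1 values lay above WT values at both, by less than the SE. The other tested region of each gene overlapped between the groups. At Hoxa9 it had 308 and 281 in Npm1, against 217 and 320.2 in WT (0.15, SE 0.35), and at Hoxa10 93.8 and 92.5 in Npm1, against 95.05 and 85.3 in WT (0.05, SE 0.57).

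**Figure D3:**
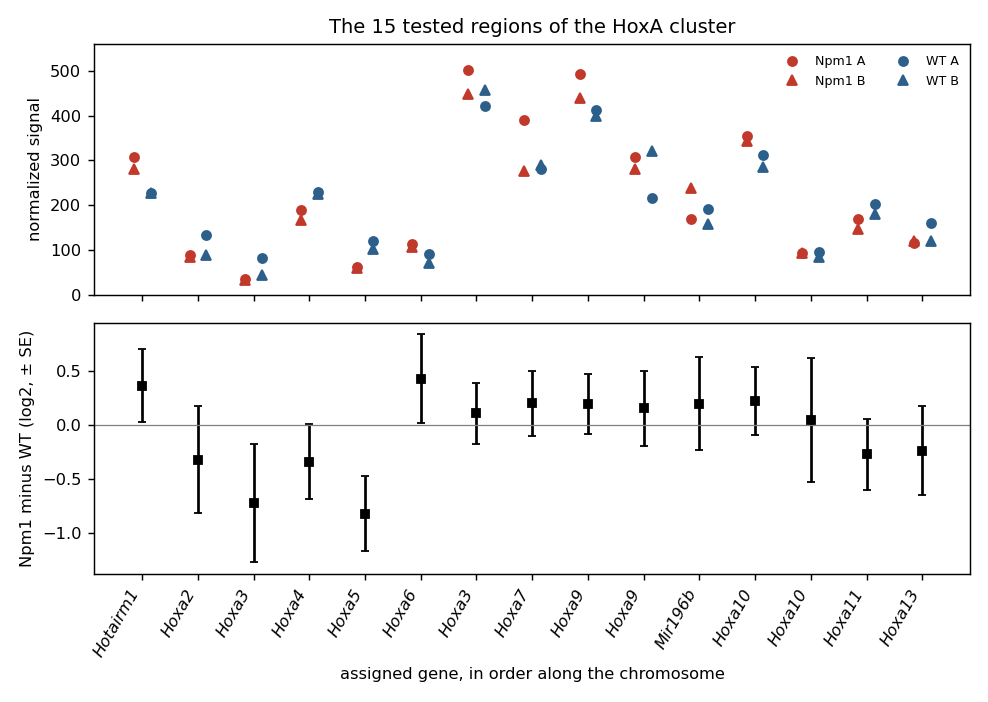
The 15 tested regions of the HoxA cluster in chromosome order, named by their assigned gene. Top, normalized signal in Npm1 (red) and WT (blue), circles for replicate A and triangles for replicate B; bottom, log2 difference of Npm1 minus WT with its SE. Hoxa2 to Hoxa5 lie below 0 and Hoxa6 to Hoxa10 above it, with most error bars reaching 0.

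Hox genes and their cofactors, 23 of 28 listed genes with 41 tested regions, had a median log2 difference of -0.12, against 0.01 over all regions. It was negative in 31 of 31 alternative settings, which reuse the same libraries. None was called, 0 were higher and 1 was lower at an unadjusted p under 0.05. Both Npm1 values lay below both WT values in 16 of the 41 (39.0%, against 13.1% of all regions) and above both in 6 (14.6%, against 13.0%). Replicate A gave a list median of -0.16 and replicate B -0.10. The members with the lowest differences were Nkx2-3, a homeobox gene also used as a stem cell marker, with 62.2 and 78.9 in Npm1 against 155 and 117 in WT (-0.90, SE 0.49), and Hoxa5. At Meis1, the cofactor most tied to mutant NPM1, the start region had 460.4 and 497 in Npm1, against 502 and 566 in WT (-0.16, SE 0.26), and the 9 tested regions had a median of -0.11 with 4 positive. The start region was at -0.24 without WT library A and -0.07 without WT library B. The region of highest mean at Pbx3, a partner of HOX and MEIS proteins, had 544 and 531 in Npm1, against 466 and 536 in WT (0.10, SE 0.31). It was at 0.002 without WT library A and 0.20 without WT library B. HoxB regions were as often higher as lower, 6 of 12, and Hoxb3 had the smallest p among higher members of the list (242 and 273 in Npm1, against 177 and 221 in WT; 0.37, SE 0.33).

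Menin, MLL and polycomb complexes, whose proteins keep Hox loci active or silent, had 67 regions with a median of 0.01 and 34 positive. Dot1l, the histone H3 lysine methyltransferase that works with MLL fusions, was its lowest-p negative member (250 and 241 in Npm1, against 381 and 274 in WT; -0.39, SE 0.30), at -0.16 without WT library A and -0.63 without WT library B. Phc2, a polycomb subunit, was the positive one (265 and 215 in Npm1, against 179.5 and 174 in WT; 0.43, SE 0.33).

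The sorted identity of the cells was compared through markers. Of 14 markers of MPP3 and other myeloid progenitors, 13 had a tested region. Summing the strongest region of each marker, tested or not, gave 5295 and 4979 in Npm1, against 4708 and 4912 in WT. The 7 LT-HSC libraries had 3365 to 3969, below all 4. Of 9 LT-HSC markers, 7 had a tested region, and the sum over all 9 was 1557 and 1777 in Npm1, against 1836 and 1814 in WT, with 1639 to 2600 in the LT-HSC libraries. The Npm1 libraries thus lay above WT for myeloid progenitor markers and below WT for LT-HSC markers, by small margins. Over tested markers alone, a choice made after seeing the data, the myeloid progenitor sums were 5205 and 4889.5 in Npm1, against 4616 and 4835 in WT, still apart, while the LT-HSC sums, 1475 and 1725 in Npm1 against 1693 and 1754 in WT, overlapped. By region, 25 of 31 at myeloid progenitor markers were positive (median 0.08) and 18 of 22 at LT-HSC markers negative (median -0.20), and none was called. Over all tested regions 51.5% were positive. Some markers have several regions, and all values come from the same 4 libraries, so these counts are not independent. More or fewer cells of a kind in the sort and more or less signal per cell cannot be told apart in these bulk libraries.

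Markers of other cell types were summed in the same way. Sums for B cell markers were 518 and 468 in Npm1, against 629 and 399 in WT, and of 5 markers Pax5 and Ebf1 had a tested region. Those for erythroid markers were 695 and 755 in Npm1, against 954 and 708 in WT, with a tested region at 3 of 6 markers. WT library A was the highest of the 4 for both. T and NK cell sums were 848 and 873 in Npm1, against 833 and 871 in WT, and megakaryocyte sums 880.7 and 847 in Npm1, against 869.5 and 879.9 in WT. Mast cell, basophil and eosinophil sums were 534 and 376 in Npm1, against 579.7 and 372 in WT, and niche cell sums 807 and 811 in Npm1, against 932 and 776 in WT.

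Neutrophil granule genes, which mark commitment to the granulocyte line, had 20 tested regions in 10 of 19 genes, with a median of 0.13 and 13 positive; the median was negative with a row mean of at least 5 as the filter. Both Npm1 values lay above both WT values in 7 of them (35.0%, against 13.0% of all regions) and below in 3 (15%, against 13.1%). Ctsg, the cathepsin G gene, had 280.2 and 219 in Npm1, against 163 and 137 in WT (0.71, SE 1.14). The row mean of this region was 110, and that of the other Ctsg region 124. Both means lay near the filter and include high Npm1 values, and both regions count among the 7. Whether they would pass the filter without the Npm1 libraries was not tested. A region 912 bp from Elane, the neutrophil elastase gene, had 279 and 184 in Npm1, against 159.6 and 175 in WT (0.43, SE 0.60), and one 1170 bp from Prtn3, the proteinase 3 gene, had 436 and 417 in Npm1, against 338 and 352 in WT (0.30, SE 0.29). The start of Mpo, the myeloperoxidase gene, did not separate the groups, with 261 and 253 in Npm1, against 269.9 and 210.1 in WT (0.11, SE 0.62; 0.29 without WT library A and -0.07 without WT library B). Ncf1, a subunit of the phagocyte oxidase, was the negative member of smallest p (151 and 80.7 in Npm1, against 147 and 145 in WT; -0.39, SE 0.44). That value rests on Npm1 library B, since it was 0.04 without that library and -0.83 without Npm1 library A.

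Myeloid transcription factors stayed near 0, with a median of 0.02 over 53 regions and 31 positive. Cebpa, needed for granulocyte commitment, had 935 and 908 in Npm1, against 736 and 958 in WT (0.13, SE 0.23; -0.06 without WT library A), and Spi1, the gene of PU.1, 668 and 594 in Npm1, against 598 and 597 in WT (0.07, SE 0.25; -0.01 without Npm1 library A). Egr2 was the positive member of smallest p (308 and 257 in Npm1, against 202 and 216 in WT; 0.42, SE 0.31). A region 57505 bp from Runx1 was the negative one (59.0 and 119 in Npm1, against 150.2 and 131 in WT; -0.71, SE 0.50), at -0.23 without Npm1 library A and -1.20 without Npm1 library B. Myeloid receptors and surface genes, 28 regions, had a median of -0.004, with Flt3 at 0.61 (SE 0.64) and Csf3r, the receptor of granulocyte colony-stimulating factor, at -0.40 (SE 0.44).

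Stem cell identity genes had 93 regions in 26 of 29 genes, with a median of -0.05 and 36 positive. Both Npm1 values lay below both WT values in 21 (22.6%, against 13.1% of all regions) and above in 9 (9.68%, against 13.0%). Against the list's median, a region inside Lmo2, a bridging factor of stem cell transcription complexes, was higher in Npm1 (chromosome 2, 103978251 to 103979819): 101 and 112 in Npm1, against 49.3 and 50.03 in WT. The pairs were tight and did not overlap (1.04, SE 0.47, limma unadjusted p = 0.040, adjusted p = 1.0). Esam, an endothelial and stem cell adhesion gene, had 174 and 193 in Npm1, against 264 and 288 in WT (-0.58, SE 0.37). The starts of Kit, the stem cell factor receptor, and Cd34 differed by 0.08 (SE 0.27) and 0.01 (SE 0.48). At Kit the values were 523 and 528 in Npm1, against 469 and 526 in WT, and at Cd34 145 and 183 in Npm1, against 179.5 and 146 in WT. Kit came to 0.00 without WT library A, just below 0, and Cd34 ranged from -0.15 without Npm1 library B to 0.17 without Npm1 library A.

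Erythroid and megakaryocyte genes had a median of -0.13 over 38 regions with 17 positive, but replicate A gave -0.28 and replicate B 0.02, in the same direction as the high erythroid marker sum of WT library A; its part was not tested. Zfpm1, a cofactor of GATA1, had 54.8 and 52.2 in Npm1, against 131 and 59.2 in WT (-0.69, SE 0.53), a difference of -0.14 without WT library A and -1.23 without WT library B. Gp1ba, a platelet receptor gene, had 107 and 117 in Npm1, against 73.9 and 75.7 in WT (0.56, SE 0.45). Lymphoid genes had a median of 0.00 over 48 regions, with Cd2 at 0.62 (SE 0.56; 0.40 without WT library B, 0.40 without Npm1 library A) and Gata3 at -0.46 (SE 0.43). Mast cell, basophil and eosinophil genes had 9 regions with a median of -0.02, led by 2 regions of Siglecf at 0.69 (SE 0.63; 0.24 without WT library A and 1.13 without WT library B) and -0.34 (SE 0.56; -0.72 without Npm1 library A and 0.04 without Npm1 library B). Niche cell genes had 25 regions with a median of -0.09, with Pdgfrb at 0.45 (SE 0.42) and Runx2 at -0.41 (SE 0.25), and replicates A and B gave -0.22 and -0.02.

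**Figure D4:**
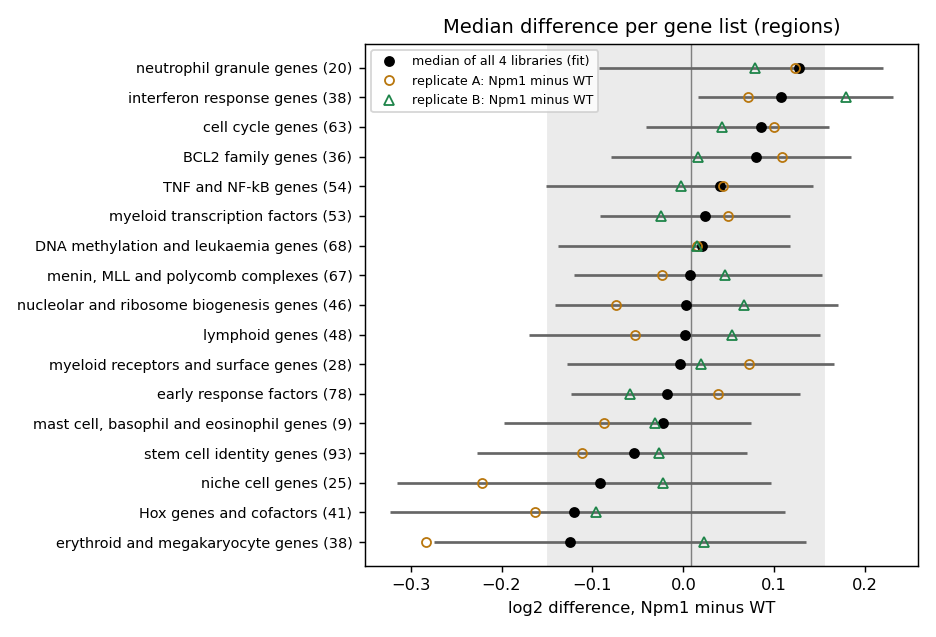
Median log2 difference of Npm1 minus WT for each gene list, with the number of tested regions in brackets. Black points are medians from the fit with interquartile ranges, open circles and triangles the medians of replicate A and replicate B alone, and the grey band the interquartile range of all tested regions, -0.15 to 0.15. The band shows the spread of single regions; list medians ran from -0.13 to 0.13.

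Interferon response genes other than Mx1 leaned the other way from Mx1. The list had 38 regions in 27 of 32 genes, 29 of them positive, with a median of 0.11 that turned negative (-0.08) when regions with a row mean of at least 5 were used. The 37 regions without Mx1 had a median of 0.12 and a lowest value of -0.30. Over all 38, both Npm1 values lay above both WT values in 11 (28.9%, against 13.0% of all regions) and below in 2 (5.26%, against 13.1%), of which Mx1 was 1. Oasl2, an oligoadenylate synthetase-like antiviral gene, had 125 and 135 in Npm1, against 75.1 and 97.5 in WT (0.58, SE 0.43). Replicates A and B gave list medians of 0.07 and 0.18.

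Cell cycle genes had a median of 0.09 over 63 regions in 30 of 30 genes, with 41 positive, and BCL2 family genes, which govern cell death, 0.08 over 36 regions with 23 positive. With a row mean of at least 5 both medians were negative, and without WT library A that of cell cycle genes was -0.01. Mcm5, a replicative helicase subunit, had 201 and 194 in Npm1, against 158 and 101 in WT (0.62, SE 0.54), the start of Pcna, the replication clamp, 617 and 762 in Npm1, against 473 and 655 in WT (0.30, SE 0.26), and an inner region of Cdkn1a, the gene of the cell cycle inhibitor p21, 138 and 111 in Npm1, against 232 and 154 in WT (-0.60, SE 0.44; -0.31 without WT library A). In the BCL2 family, both Npm1 values lay above both WT values in 10 of 36 regions (27.8%, against 13.0% of all regions) and below in 1 (2.78%, against 13.1%). Bmf, a BH3-only gene that promotes cell death, had 289.7 and 240.3 in Npm1, against 162 and 221 in WT (0.47, SE 0.35), and Bok, a pore-forming member, 162 and 233 in Npm1, against 311 and 232 in WT (-0.46, SE 0.34).

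Nucleolar and ribosome biogenesis genes, the machinery that nucleophosmin serves, had 46 regions with a median of 0.00 and 23 positive. Wdr43, a ribosome assembly gene, lay at 0.86 (SE 0.61) with 114 and 86.9 in Npm1, against 35.2 and 79.2 in WT (0.32 without WT library A and 1.39 without WT library B), and Tcof1, the treacle gene, at -0.34 (SE 0.37). The Wdr43 region had a row mean of 103, near the filter of 100, and that mean includes its high Npm1 values. The tested region at Npm1 itself (chromosome 11, 33161861 to 33163699) had 489.9 and 515 in Npm1, against 393 and 501 in WT (0.18, SE 0.33), which does not tell whether the allele recombined. Its difference was 0.005 without WT library A and 0.35 without WT library B. DNA methylation and leukaemia genes had a median of 0.02 over 68 regions, with U2af1, a splicing factor gene, at 0.32 (SE 0.28) and Bcorl1, a polycomb corepressor gene, at -0.39 (SE 0.31). Dnmt3a, the de novo methyltransferase gene, had 579 and 582 in Npm1, against 634 and 717 in WT (-0.21, SE 0.25). Early response factors (78 regions, median -0.02) and TNF and NF-kB genes (54 regions, median 0.04) closed the lists. Egr3, an immediate early factor gene, was the negative member of smallest p among early response factors (268 and 195 in Npm1, against 418 and 292 in WT; -0.60, SE 0.29), at -0.35 without WT library A and -0.38 without Npm1 library B. In the TNF and NF-kB list Bcl3 lay at 0.52 (SE 0.37; 0.04 without WT library A and 1.00 without WT library B) and Icam1 at -0.28 (SE 0.26).

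Away from the lists, the 12 regions of smallest p without overlap were taken in each direction. Of these, 5 higher and 12 lower regions had an unadjusted p under 0.05. Higher in Npm1 were intragenic regions at Ide, the insulin-degrading enzyme gene (154 and 94.99 in Npm1, against 70.4 and 32.6 in WT; 1.26, SE 0.48), and Btaf1, a regulator of TATA-binding protein (156 and 141 in Npm1, against 63.4 and 78.3 in WT; 1.03, SE 0.46), a region at Gm22973 (214 and 158 in Npm1, against 70.4 and 80.5 in WT; 1.24, SE 0.48) and one inside Mbp, the myelin basic protein gene (121 and 133 in Npm1, against 78.6 and 55.7 in WT; 0.90, SE 0.42). Malat1, a long nuclear RNA, and the start of Pgk1, a glycolytic enzyme gene, followed at 0.59 (SE 0.29) and 0.91 (SE 0.47), with 347 and 445.2 in Npm1 against 159.6 and 269 in WT at Pgk1. The others were Gm35599 at 1.25 (SE 0.63), LOC100043315 at 0.83 (SE 0.43), Abhd12, a lipid hydrolase gene, at 0.58 (SE 0.30), Zik1, a zinc finger gene, at 0.91 (SE 0.48), and Gm2629 at 0.95 (SE 0.51). Row means at Gm35599 and Gm2629 were 101.4 and 101.3, close to the filter, and they include the high Npm1 values. Whether these regions would pass the filter without the Npm1 libraries was not tested. Leaving out a WT library moved 6 of the 12 by over 1.5 times. Without WT library A, Malat1 was at 0.38, Pgk1 at 0.54, Abhd12 at 0.17 and Zik1 at 0.33. Without WT library B, Ide was at 0.75, Gm35599 at 0.63, Abhd12 at 0.99 and Zik1 at 1.49.

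**Figure D5:**
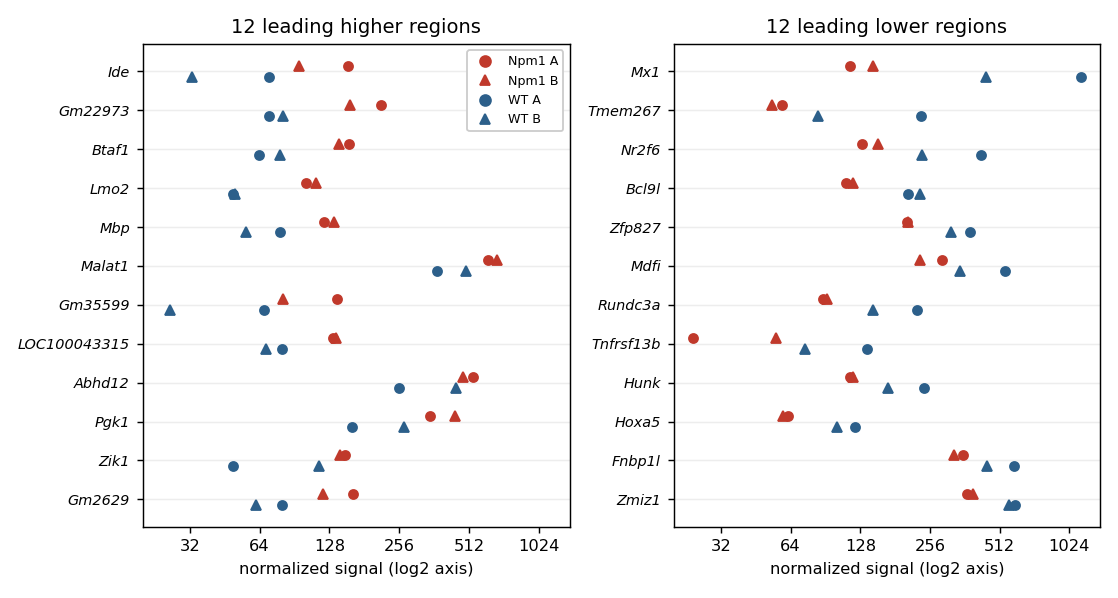
Normalized signal (log2 axis) at the 12 higher and the 12 lower regions of smallest p whose groups do not overlap, named by assigned gene and ordered by p from the top. Red marks Npm1 and blue WT, circles replicate A and triangles replicate B; at most lower regions WT A is the highest point.

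Lower in Npm1, after Mx1, came an intragenic region of Tmem267 (chromosome 13, 119597609 to 119598348) with 59.0 and 53.4 in Npm1, against 235 and 84.0 in WT (-1.27, SE 0.43, limma unadjusted p = 0.0083, adjusted p = 1.0). The difference was -0.55 without WT library A and -1.98 without WT library B. It was 1 of 4 tested regions there, between 119597609 and 119617662, with differences of -1.47 to -0.62, and the other 3 overlapped between groups. Next were Nr2f6, an orphan nuclear receptor gene (129.6 and 152 in Npm1, against 424 and 237 in WT; -1.15, SE 0.42; -0.74 without WT library A), and Bcl9l, a cofactor of beta-catenin (111 and 119 in Npm1, against 207 and 231 in WT; -0.91, SE 0.35). Of the 5 tested regions at Bcl9l, this one and another, at -0.85, had both Npm1 values below both WT values (13.1% of all regions did), while the other 3 lay at 0.14, 0.06 and 0.03. Zfp827, a zinc finger gene, had 204 and 206 in Npm1, against 380.2 and 316 in WT (-0.74, SE 0.29).

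The start of Hunk, a kinase gene of the AMPK-related family, had 116 and 119 in Npm1, against 241 and 169 in WT (-0.76, SE 0.32). That of Mdfi, an inhibitor of myogenic factors, had 289.7 and 231 in Npm1, against 537 and 343 in WT (-0.72, SE 0.29). Fnbp1l, a gene of actin assembly, had 355 and 325 in Npm1, against 590.2 and 449 in WT (-0.59, SE 0.26). At each of these 3 starts, shown above with Hoxa5, WT library A was the highest of the 4. The difference at Mdfi was -0.40 without WT library A and -1.04 without WT library B. Rundc3a (-0.97, SE 0.40), Tnfrsf13b, the gene of TACI, a TNF family receptor of B cells (-1.36, SE 0.56; -0.82 without Npm1 library A), and Zmiz1, a transcriptional coactivator gene (-0.59, SE 0.26), completed the 12. At Rara, the retinoic acid receptor gene of myeloid differentiation, named after its values were seen, 10 of 11 tested regions were negative (median -0.33), and 1 of them had an unadjusted p under 0.05 (161 and 173 in Npm1, against 279 and 283 in WT; -0.74). The remaining lower regions under that p lay at Spns2, Homer3, Tbx2, Rgmb, Gucy1b1, Wdr91, Has3, Col16a1, Unc5a and Fignl2, between -1.20 at Homer3 and -0.81 at Rgmb.

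Among the 25 lower regions at an unadjusted p under 0.05, WT library A was above WT library B in 23, against 50.1% of all tested regions, and 9 held a gene start (36%, against 40.2% of all tested regions). Among the 6 higher ones WT library A was above WT library B in 3, and none held a start. The other higher region, near Gm33780 on chromosome 2, was named outside the rule for its signal of 11854 and 6961 in Npm1, against 7366 and 4529 in WT; its groups overlapped. WT library A had the fewest reads and the lowest share of signal in tested regions of the 4, and its part in the lower regions was not tested.

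By position, the 13962 regions within 1000 bp of a gene end (bounds of RefSeq genes) gave 0.01, the 7926 farther inside genes 0.01 and the 3140 between genes 0.01. By level, the 789 regions with a mean signal of 800 or more gave 0.05 (520 positive) and those of 150 to 250 a median of -0.02. Chromosome medians ran from -0.07 on chromosome 11, where 869 of 2265 regions were positive, to 0.08 on chromosome 16, where 500 of 779 were. These chromosome medians come from many regions of the same 4 libraries and were not tested.

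The Npm1 allele was also compared with WT in LT-HSC, to ask whether its effect differs between the cell types. The test of that difference called 0 of 25058 regions (0%), with 2988 at an unadjusted p under 0.05 (11.9%) and a smallest adjusted p of 0.305. The 504 regions called higher in LT-HSC Npm1, with a median of 2.02 there, had a median of 0.07 in MPP3, and the 554 called lower, with a median of -1.17 there, had 0.06 in MPP3. In LT-HSC the share of signal in tested regions was 19.1% and 15.4% in Npm1, against 44.6% and 29.9% in WT, a gap that the MPP3 groups do not show. At the Hunk start, chosen above for its MPP3 values, the LT-HSC libraries had 492 and 458 in Npm1, against 205 and 244 in WT, and at Nr2f6 426 and 415 in Npm1, against 166 and 196 in WT, so both lay higher in LT-HSC Npm1 and lower in MPP3 Npm1. That contrast did not hold at all leading regions. Of the 12 higher ones, all but Abhd12 (-0.64) were also higher in LT-HSC Npm1. Ide (2.60), Gm35599 (2.74) and LOC100043315 (2.35) were called higher there. The row mean of Gm35599, 101.4, lay close to the filter and includes its high LT-HSC Npm1 values. Of the 12 lower ones, Mx1, Bcl9l, Fnbp1l and Zmiz1 were also lower in LT-HSC Npm1, and the rest were higher. These directions are a description, since the MPP3 values chose the regions.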

How the data were processed

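ATAC-seq of 14 libraries was deposited by the authors as 1 table of whole-number signal values per region and library. These are scaled signal and not raw counts: reads had been multiplied by a factor per library and rounded, as the spacing of low values shows. The tools listed are R 3.6.0, HOMER 4.10, DiffBind 2.12.0 and edgeR 3.26.4, and the build is mm10, per the submitters' processing notes; aligner, peak caller, removal of problem regions and shift of read ends are not given in the sources used here.

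Coordinates are printed as deposited. Regions with a row mean of at least 100 were divided by TMM factors (trimmed mean of M values) and fitted with limma 3.58.1 in R 4.3.3 to log2(value + 4), 8 groups as the design, with a trended, robust prior. Groups of 1 library borrow the spread of the others. Differences of low regions are understated by the pseudocount. The row mean includes the 4 compared libraries, so a region near 100 can pass the filter because 1 group is high. The Siglecf region higher in Npm1, with a row mean of 104.6, is also near the filter. Values called normalized signal are those divided by the factor; SE is limma's moderated SE. The fit and the depth estimate were tested on simulated data. Tables and figures were made in Python 3.11.15 with numpy 2.4.6, pandas 2.3.3 and matplotlib 3.10.9. The planned count test was replaced by limma because the values are not counts.

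A region belongs to the gene it lies in, to the nearest gene within 100000 bp (RefSeq GRCm38.p6), and to genes starting inside it; this does not show regulation. Of 400 genes on 17 lists, 331 had at least 1 tested region. Members, lists and tests were chosen with earlier results of these data known. Named regions are the 12 higher and 12 lower of smallest p without overlap, 1 per gene, from each list that of smallest p in each direction, and the strongest at Npm1, Dnmt3a, Hoxa9, Hoxa10, Meis1, Pbx3, Cebpa, Spi1, Mpo, Cd34 and Kit; other members of the lists and the HoxA, HoxB, Mx2, Rara and Tmem267 regions were added after their values were seen. Adjusted p-values cover all 25058 regions. Alternatives were other filters, normalizations, pseudocounts, priors, sets of libraries, a replicate block, an enrichment covariate and leaving out each library.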

Additional observations from a re-analysis of the deposited data

How the results depend on the processing

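The count of 0 regions called in MPP3 held under all filters, normalizations, pseudocounts and priors tried, with the 7 MPP3 or the 4 libraries alone and with a replicate block on the letters A and B in the fit of 14 (29 at an unadjusted p under 0.05). It was 1 (lower) with the share of signal in tested regions as a covariate, at Mx1. Leaving out 1 library gave 0 to 1, the 1 without MPP3 WT replicate B, also Mx1. The 4 MPP3 libraries with a replicate block gave 16 (9 higher, 7 lower), led by Mx1. That fit was chosen after seeing the data and has 1 residual degree of freedom. The higher calls included regions assigned to Gm33780, Chl1 and Hjurp, with row means of 7696, 6478 and 10646 and differences of 0.65, 0.57 and 0.43. The median row mean of all tested regions was 198. Others among the higher calls, such as Pgk1 and Gm22973, had row means of 289 and 119. The letters are not known to pair libraries, and with only 2 letters the check of pairing cannot settle it. The correlation of A minus B was 0.41 between MPP3 Npm1 and MPP3 WT. Against MPP3 Dnmt3a it was 0.07 for MPP3 Npm1 and 0.09 for MPP3 WT. Between MPP3 and LT-HSC groups it was -0.25 to 0.06. The difference from the LT-HSC effect had 2 calls with a row mean of at least 200, 1 with library totals, 2 with cyclic loess, 0 with the replicate block, and 0 to 8 with 1 library left out, the 8 without MPP3 WT replicate B. The cause was not tested. For named regions, 1899 values under alternatives moved by less than their SE, 16 moved by more and 8 passed the threshold. The Hox list median ranged from -0.18 to -0.04 and the interferon list median from -0.08 to 0.20. The edgeR test on whole reads was not run, because reads could not be recovered for every library. Depth, at 108 to 261 reads behind a value of 100, limits low regions.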
